A study of Homo sapiens with 8 samples.

Results

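The 4 tumors described here are the vehicle-treated xenografts of a series of 8, chosen by their treatment label. They were grown from HCC1937, an established cell line of human triple-negative breast cancer, which is a cancer without the receptors for estrogen and progesterone and without amplified ERBB2. The hosts were NCG mice (NOD/ShiLtJGpt-Prkdcem26Cd52Il2rgem26Cd22/Gpt), which lack T, B and natural killer cells. Each mouse received 1000000 cells in the inguinal mammary fat pads, and treatment began once tumors reached 100 to 150 mm3. The other 4 tumors of the series received NMN, a precursor of NAD+, and are not described. The 4 here received vehicle and are called Vehicle 1 to 4. The sources used here do not give host age and sex, the vehicle itself or its duration. Nor do the labels state that each tumor came from its own mouse, so the spread given here is between these 4 samples.

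Mammary epithelium has an inner luminal layer, marked by the keratins of simple epithelia, and an outer basal layer, marked by keratins that it shares with the epidermis. Basal-like breast cancers carry many basal keratins and proliferation genes and little of the estrogen receptor program. Stratified epithelia such as the epidermis add a further program, cornification, in which upper cells build a tough envelope from small crosslinked proteins and secrete antimicrobial peptides. A xenograft also contains host stroma, and RNA from whole tissue holds both.

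Values are TPM, a transcript's share of its library on a fixed scale, which are corrected for transcript length and can be compared between genes of a tumor. In bulk RNA a lower level can mean fewer cells of a type or less RNA per cell, and these cannot be told apart. Because TPM is scaled to a fixed total, how deeply a library was sequenced cannot be read from it, and values carry no counting interval. The sources used here do not give the treatment of mouse reads, and their part in any value was not tested.

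The table lists 18164 genes. A mean of at least 1 TPM over the 4 tumors was reached by 13307 of them, or 73.3%, and 9008, 1509 and 144 reached 10, 100 and 1000 TPM. The number of genes above 0 ran from 16451 in Vehicle 4 to 16585 in Vehicle 3, and 650 genes were at 0 in every tumor. Vehicle 4 stood somewhat apart. Across the 13307 genes, Pearson correlations of log2(TPM + 1) were 0.962, 0.978 and 0.970 between Vehicle 4 and Vehicle 1, 2 and 3, and 0.980 to 0.984 among the other tumors, given here as a description of genes within 1 table. Of 10763 genes with a mean of at least 5 TPM, some differed by at least 1 in log2(TPM + 1) between 2 tumors. Between Vehicle 4 and Vehicle 1, 2 and 3 these were 649, 273 and 463 genes. Among the other tumors they were 132 to 231, so Vehicle 2 was nearly as far from Vehicle 3 as from Vehicle 4. Vehicle 2 had the lowest value of the 4 in 42.6% of the 10763 genes. Median-of-ratios scaling, which sets the typical gene equal between libraries, gave log2 factors of 0.05, -0.12, 0.10 and -0.03 for Vehicle 1 to 4, so most genes of Vehicle 2 sit lower by about that amount.

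**Figure D1:**
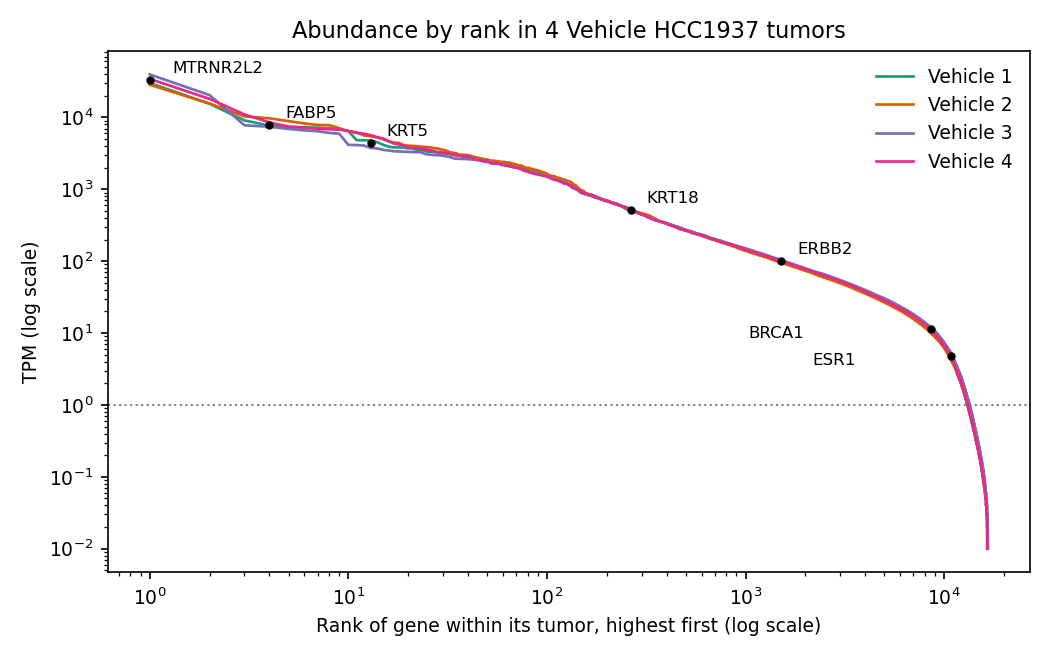
TPM of each gene against its rank within each of the 4 Vehicle tumors, both on log scales, with 7 genes marked at their mean TPM and its rank and the dotted line at 1 TPM. The 4 curves nearly coincide, from MTRNR2L2 at a mean of 33117 TPM down past ESR1 at 4.74 TPM.

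The most abundant transcripts of these tumors belonged to ribosomes, to glycolysis and chaperones and to keratinizing epithelium. The 100 genes with the highest means held 33.9% ± 1.53 of all TPM (SD, n = 4), and the 10 highest held 10.7% ± 0.541. Membership was steady, with 81 genes in the top 100 of all 4 tumors and 116 in that of at least 1. Cytosolic ribosomal protein genes made up 40 of the 100, and the 86 such genes in the table summed to 152644 ± 9718 TPM. By rank, 18 genes came first in this order: MTRNR2L2, MTRNR2L8, RPS27, FABP5, GAPDH, RPL35, HSPB1, RPL30, RPL8, PI3, S100A7, KRTDAP, KRT5, RPL41, TMSB10, HSPA1A, SLPI and KRT14. MTRNR2L2 and MTRNR2L8 are nuclear relatives of mitochondrial ribosomal RNA, whose reads cannot be assigned to them with certainty, and together took 4.56%, 4.41%, 6.00% and 5.24% of TPM in Vehicle 1 to 4.

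FABP5, the fatty acid binding protein of epidermis, was the most abundant transcript outside the ribosomal and MTRNR2L genes, at 6935, 9715, 6093 and 8541 TPM. It was higher in Vehicle 2 and Vehicle 4 than in the other two, by up to 1.59-fold. GAPDH, a glycolytic enzyme, was close to it at 7329 ± 399.98 TPM, and the small heat shock protein HSPB1 stood at 7031 ± 963 TPM. PI3, or elafin, an elastase inhibitor of inflamed skin, had 2021, 6213, 2883 and 10980 TPM, and S100A7, or psoriasin, an antimicrobial calcium-binding protein, 3105, 8889, 3306 and 6061 TPM. Both were lower in Vehicle 1 and Vehicle 3 than in the other two tumors. KRTDAP, a secreted protein of differentiating keratinocytes, varied little, at 4963 ± 660.4 TPM. SLPI, an antiprotease of secretory epithelia and of luminal progenitors, was as even, at 3848 ± 435 TPM.

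Short promoter stretches of ribosomal protein genes and of EEF1A1, which encodes a translation elongation factor, are shown because these genes dominate the tumors and share a feature at their start sites. Each runs from 15 bases before to 15 bases after the RefSeq start (GRCh38.p14), 5′ to 3′, with capitals for the unbroken run of C and T that holds the start. The regions are chr1:153990747-153990776 (plus strand), chr9:124861943-124861972 (minus strand), chr12:56116618-56116647 (plus strand) and chr6:73521018-73521047 (minus strand).
RPS27: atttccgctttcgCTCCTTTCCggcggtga
RPL35: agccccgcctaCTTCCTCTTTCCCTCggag
RPL41: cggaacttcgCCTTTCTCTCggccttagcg
EEF1A1: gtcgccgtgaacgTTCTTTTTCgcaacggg
A run of at least 8 such bases over the start was found in 47 of the 68 ribosomal protein genes with a listed promoter, or 69.1%, and in 6.59% of all 14329 genes with one. By level, the share was 37.4% of 107 genes at 1000 TPM or more, 10.2% of those from 100 to 1000 TPM and 3.41% of those at 0 in every tumor. The upper classes include the ribosomal protein genes, which were 52 of the 144 listed genes at 1000 TPM or more. Shares by level without them were not computed. A gene counted when any of its listed start sites matched, and the run was read on the gene's own strand. Base composition differed between low and high genes. The median number of CG pairs in the 300-base promoter was 6 in genes at 0, 11 in genes above 0 but under 1 TPM, 22 in genes from 1 to 10 TPM, 26 in both classes from 10 to 1000 TPM and 23 in genes at 1000 TPM or more, against 23 over all genes. These are descriptions across genes, and genes are not independent replicates.

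Keratins took a large share of the transcriptome and were mostly of the basal and stratified kind. The 53 keratin genes in the table summed to 2.27%, 2.75%, 2.33% and 3.68% of TPM in Vehicle 1 to 4, and 9 of them had a mean of at least 1000 TPM. KRT5, the type II keratin of basal cells (GENCODE 29 annotation of GRCh38, chromosome 12, 52514575 to 52520687, minus strand), was at 3276, 4648, 3280 and 6488 TPM. Its partner KRT14 (chromosome 17, 41582279 to 41586921, minus strand) was at 2767, 3033, 2603 and 6953 TPM, with Vehicle 4 well above the rest. KRT16, KRT17 and KRT6A, keratins of activated epidermis, followed at 3169 ± 997, 2452 ± 953 and 1677 ± 1351 TPM. KRT15 alone among the 8 basal keratins had its lowest value in Vehicle 4, at 824 TPM against 1410 to 1801 TPM in the others. Reads of KRT6A, KRT6B and KRT6C, and of KRT14, KRT16 and KRT17, can be split between near-identical copies.

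Suprabasal keratins, which replace the basal pair as epidermal cells differentiate, were also abundant. KRT1 had 1943, 2063, 2203 and 2591 TPM and KRT10 had 2622, 2144, 3148 and 2099 TPM, so this pair was more even than KRT5 and KRT14. KRT13 and KRT4, the pair of moist stratified linings such as the esophagus, were at 1553 ± 527 and 383 ± 125 TPM. The luminal keratins KRT7, KRT19, KRT18 and KRT8 had means from 415 to 640.1 TPM. Their sum was 2545, 1830.5, 2793 and 1406 TPM, against 13009, 18376, 13234 and 28048 TPM for the 8 basal keratins. The ratio of basal to luminal sums was therefore 5.11, 10.0, 4.74 and 19.9, so basal keratins exceeded luminal ones in every tumor, but by a 4.21-fold range. Without Vehicle 4 the mean basal sum was 14873 TPM, against 18167 TPM with it. KRT20, of gut and urothelium, stood at 0.190 ± 0.0337 TPM.

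The receptors that define the label of these tumors were low or unremarkable. ESR1, the estrogen receptor gene (chromosome 6, 151656691 to 152129619, plus strand), had 5.72, 4.04, 4.95 and 4.26 TPM, at rank 10875 of 18164. PGR, the progesterone receptor, was at 0 in 3 tumors and 0.02 TPM in Vehicle 4. ERBB2, the HER2 receptor, was at 102, 89.8, 130.0 and 77.6 TPM, at rank 1511. Its neighbours GRB7 and STARD3, which are amplified with it in HER2-positive cancers, had means of 40.4 and 39.2 TPM. The 9 genes of that segment summed to 503 ± 47.0 TPM.

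Luminal transcription factors were nevertheless present. GATA3, a luminal fate factor, had 53.2, 49.1, 42.6 and 30.1 TPM, and FOXA1, a pioneer factor for the estrogen receptor, 51.9, 37.0, 51.9 and 21.8 TPM. SPDEF and XBP1, which act in secretory luminal cells, were at 117 ± 37.9 and 261 ± 71.1 TPM. All 4 of these genes had their lowest value in Vehicle 4. ELF5, a factor of luminal progenitors, was at 47.8 ± 16.1 TPM and the progenitor receptor KIT at 11.1 ± 5.01 TPM. Of 22 genes of the hormone receptor and luminal list, 18 reached 1 TPM (73.3% of all genes did), with a median of 7.53 TPM.

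The basal list had a higher median than the luminal one, although XBP1 of the luminal list had a higher mean than TP63, CDH3 and EGFR. In the list of 24 basal and myoepithelial genes other than keratins, 23 reached 1 TPM (73.3% of all genes did), with a median of 49.1 TPM. The cell cycle inhibitor SFN was at 2174 ± 771 TPM and TRIM29, a basal epithelial regulator, at 1085 ± 107 TPM. TP63, the master factor of basal and squamous epithelium, had 67.6, 88.6, 89.97 and 125 TPM. P-cadherin (CDH3) had 66.4, 82.1, 68.1 and 122 TPM, and EGFR 45.5, 44.6, 59.6 and 66.1 TPM, both highest in Vehicle 4. LAMB3, a laminin chain of the basement membrane, and the hemidesmosome integrin ITGB4 were at 116 and 84.9 TPM in Vehicle 4 and at no more than 51.2 and 47.1 TPM elsewhere. The lowest members were the calponin gene CNN1 at 0.345 ± 0.150 TPM and the transcription factor SOX10 at 1.15 ± 0.949 TPM.

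**Figure D2:**
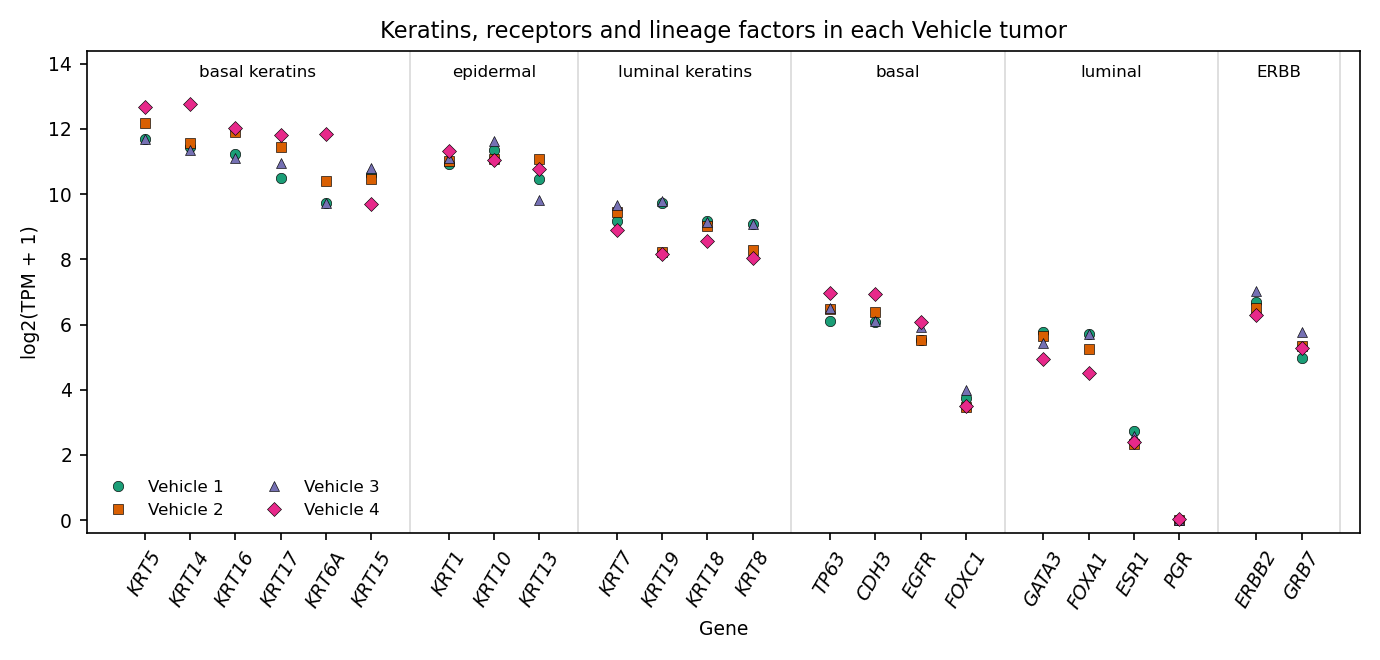
log2(TPM + 1) of keratins, receptors and lineage factors, with 1 point per Vehicle tumor and genes grouped by role. PGR lies at the bottom, and Vehicle 4 is highest for KRT5 and KRT14 and lowest for KRT8 and FOXA1.

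Adhesion genes gave an epithelial picture. All 25 genes of the epithelial adhesion list reached 1 TPM (73.3% of all genes did), with a median of 111 TPM. E-cadherin (CDH1) was at 172, 168, 179 and 187 TPM, a range of 1.11-fold, and the adhesion molecule EPCAM at 111 ± 22.0 TPM. The desmosomal genes DSP and JUP were at 842 ± 117 and 808 ± 105 TPM. Of 17 mesenchymal genes 13 reached 1 TPM (73.3% of all genes did) and 8 reached 10 TPM, with a median of 7.1 TPM. The 4 under 1 TPM included N-cadherin (CDH2) at 0.182 ± 0.0655 TPM and the EMT factor ZEB1 at 0.538 ± 0.112 TPM. VIM, which encodes vimentin, was at 134 ± 21.4 TPM and SNAI2, an EMT factor also found in basal cells, at 45.3 ± 10.1 TPM. Other surface molecules with high levels were CD24 at 1049 ± 179 TPM, LY6E at 912 ± 116 TPM and GPNMB, whose 905 TPM in Vehicle 4 compared with 248 to 400.4 TPM in the other tumors.

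HCC1937 is known for a mutated BRCA1. BRCA1, of homologous recombination, was at 11.1, 8.72, 13.2 and 12.2 TPM, or 11.3 ± 1.94 TPM, with Vehicle 2 lowest. RB1, the brake on S phase entry, had 27.3 ± 2.55 TPM. CDKN2A, which encodes p16 and ARF, was the highest of 28 checkpoint and tumor suppressor genes at 362 ± 19.2 TPM, and CDKN1A, which encodes p21, followed at 336 ± 85.1 TPM. RNA levels do not show whether a mutated gene gives a working protein.

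Proliferation genes were present at even levels. Of 40 cell cycle genes, 39 reached 1 TPM (73.3% of all genes did), and the exception was cyclin D2 (CCND2) at 0.150 ± 0.0770 TPM. PCNA, the sliding clamp of replication, was at 599.8 ± 64.1 TPM, UBE2C, of mitotic exit, at 290.2 ± 21.9 TPM, and MKI67, the proliferation marker Ki-67, at 79.6, 59.0, 87.3 and 77.3 TPM. The median SD of log2(TPM + 1) in this list was 0.15, against 0.19 over the 10763 genes with a mean of at least 5 TPM. Vehicle 2 had the lowest value in 31 of 39 such genes, and in 16 of 39 after median-of-ratios scaling, against 42.6% and 21.1% of all 10763 genes. Vehicle 4 had the highest value in 17 of 39, and in 24 of 39 after scaling, against 26.8% and 33.1%. MYC, a driver of growth, was at 74.6, 77.9, 68.8 and 74.2 TPM.

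Stromal lists held both expressed genes and defining genes near 0, where 73.3% of all genes reached 1 TPM. Of 15 fibroblast genes 9 reached 1 TPM, and the list summed to 280.6 to 419.6 TPM. COL1A1 and COL1A2, the chains of type I collagen, were at 140.2 ± 27.5 and 65.7 ± 11.9 TPM. The fibroblast proteoglycans DCN and LUM were at 0 in every tumor, and the receptor PDGFRA at 0.590 ± 0.163 TPM. Of 14 pericyte and smooth muscle genes 10 reached 1 TPM, with sums of 367 to 592 TPM. The Notch receptor NOTCH3 and smooth muscle actin ACTA2 were at 103 ± 13.5 and 85.8 ± 8.95 TPM, while the pericyte receptor PDGFRB was at 0.408 ± 0.164 TPM. Of 16 endothelial markers 6 reached 1 TPM, their sum ran from 13.8 to 17.6 TPM, and the defining genes PECAM1 and CDH5 were at 0.585 ± 0.273 and 0.0625 ± 0.0150 TPM. Of 11 adipocyte genes in the table, from a list of 14, 9 reached 1 TPM, with sums of 129 to 242 TPM. The adipocyte hormone ADIPOQ was at 0 throughout, and the lipid droplet gene PLIN1 at 1.24 ± 0.636 TPM. FABP4, of adipocytes and capillaries, had 13.6, 3.19, 92.2 and 26.9 TPM, a 28.9-fold range with the peak in Vehicle 3. These are values of human genes in tumors with mouse stroma.

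Defining leukocyte genes were near 0, while other members of these lists were not. Of all genes, 73.3% reached 1 TPM. The table lacked 7 of 21 myeloid, 3 of 12 B and plasma cell and 2 of 19 T and natural killer cell genes. Of 7 pan-leukocyte genes 4 reached 1 TPM, with sums of 65.2 to 92.3 TPM. The actin regulators LCP1 and CORO1A led them at 62.1 ± 12.4 and 12.2 ± 2.78 TPM. PTPRC, the CD45 antigen of all leukocytes, was at 0.312 ± 0.0532 TPM, and CD53 was at 0 in all 4 tumors. Of 17 T and natural killer cell markers, 3 reached 1 TPM, and CD2 and GNLY were at 0. Of 9 B and plasma cell markers 2 did, 1 of them SDC1, the syndecan that epithelia also make, at 382 ± 45.7 TPM. Of 14 myeloid genes 11 reached 1 TPM. The myeloid list summed to 4391, 9986, 4034 and 7357 TPM, nearly all of it from S100A8 and S100A9, which stressed keratinocytes also express, at means of 3531 and 2835 TPM. CD68, a lysosomal protein of macrophages, and CD14, a receptor for endotoxin, came next at 34.9 and 20.7 TPM, and the macrophage receptors CSF1R and MRC1 were at 2.72 and 0.0525 TPM.

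Skeletal muscle markers differed widely between the tumors. Of 24 such genes 21 reached 1 TPM, against 73.3% of all genes, with a median of 24.7 TPM. The list summed to 1080.3, 852, 3158 and 546 TPM, or 0.108%, 0.0852%, 0.316% and 0.0546% of TPM, which is 5.78-fold from Vehicle 4 to Vehicle 3. The mean sum was 1409 TPM, and 826 TPM without Vehicle 3. TNNC2, the calcium sensor of fast fibers, had 245, 187, 645 and 107 TPM and TNNI2, its inhibitory partner, 138, 92.4, 278 and 47.8 TPM. Of the 20 genes with a mean of at least 5 TPM, 19 were highest in Vehicle 3 and 18 lowest in Vehicle 4, against 35.98% and 28.7% of all 10763 genes. DES, an intermediate filament of muscle, was also highest in Vehicle 3, at 250.98 TPM against 65.0 to 85.5 TPM. TTN, the giant spring protein, was at 0.58 ± 0.541 TPM and PVALB, a calcium buffer of fast fibers, at 0 in all 4. The part of muscle tissue in other genes' values was not tested.

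**Figure D3:**
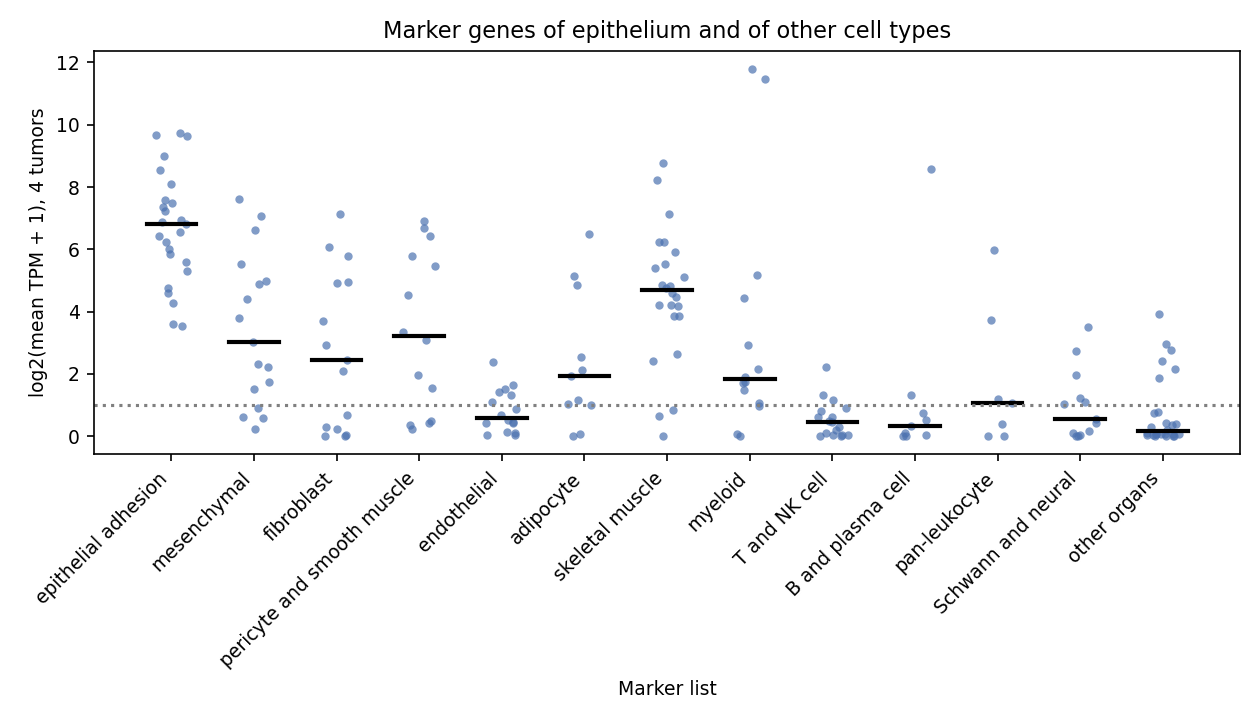
log2(mean TPM + 1) over the 4 Vehicle tumors for each gene of 13 marker lists, with 1 point per gene, the bar at the list median and the dotted line at 1 TPM. Epithelial adhesion genes lie highest, skeletal muscle genes next, and endothelial, lymphoid and unrelated organ genes near 0.

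Of the class I antigen presentation list, 15 of 16 genes reached 1 TPM, against 73.3% of all genes. B2M, the shared light chain, was at 875 ± 82.9 TPM, and the heavy chain genes HLA-B and HLA-C at 446 ± 117 and 260.4 ± 28.97 TPM. Class II genes were low, with HLA-DRA at 1.09 ± 0.576 TPM, their activator CIITA at 0.630 ± 0.0970 TPM and the invariant chain CD74 at 22.5 ± 5.74 TPM. CD274, the checkpoint ligand PD-L1, was at 0.428 ± 0.242 TPM. CCL5, a chemokine for T cells, led the 34 checkpoint and cytokine genes at 73.6, 451, 65.5 and 301 TPM, with Vehicle 2 and Vehicle 4 above the other two. TNFSF10, the death ligand TRAIL, was even at 199 ± 19.4 TPM.

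Several families tied to other organs were low, though they hold few of the 650 listed genes at 0. Counts are over the genes that the table lists, and it lacked 5 of 31 organ genes and 19 of 36 germ cell genes. Of 69 olfactory receptors, 19 were at 0 in every tumor and 4 reached 1 TPM, against 73.3% of all genes. Of 24 hair keratin-associated proteins 12 were at 0 and none reached 1 TPM. Of 26 defining genes of unrelated organs 6 reached 1 TPM, and 4 were at 0, among them SFTPC of lung, PRSS1 of pancreas and CDX2 of gut. The highest of that list was the cardiac factor NKX2-5, at 10.9, 12.6, 16.7 and 17.0 TPM. Of 17 germ cell genes, 8 reached 1 TPM. MAGEA3, PRAME and TEX15 were at 0, whereas CT83, a testis antigen seen in many triple-negative cancers, was at 39.4, 42.1, 59.3 and 38.2 TPM.

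Most genes differed little between the 4 tumors. Over the 10763 genes with a mean of at least 5 TPM the median SD of log2(TPM + 1) was 0.19, and the median ratio of highest to lowest tumor was 1.36. An SD of at least 1 was reached by 107 of these genes, or 0.994%. Among the most even genes above 50 TPM were GOT2, a mitochondrial transaminase, at 182 to 183 TPM in all 4, PDCD10 at 171 to 174 TPM and EEF1A1 at 2935 to 2990.2 TPM. The 107 variable genes included 15 of 20 skeletal muscle genes, 9 of 47 of cornification and 9 of 21 of epidermal defense. They also included 6 of 31 of the heat shock response and 6 of 26 of glandular secretion, counted over members with a mean of at least 5 TPM. No list held 51 of the 107. Of the 107 variable genes, 44 had their highest value in Vehicle 4 and 50 their lowest, against 26.8% and 28.7% of all 10763 genes. Without Vehicle 4, 52 genes reached an SD of 1, of which 44 were among the 107. The lists of cornification, epidermal defense, heat shock and secretion genes were drawn up after these values were seen, so their counts are a description. Several of the most variable genes, such as EIF3CL, SULT1A4, FAM25C and CSAG3, have near-identical copies among which reads can be split.

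**Figure D4:**
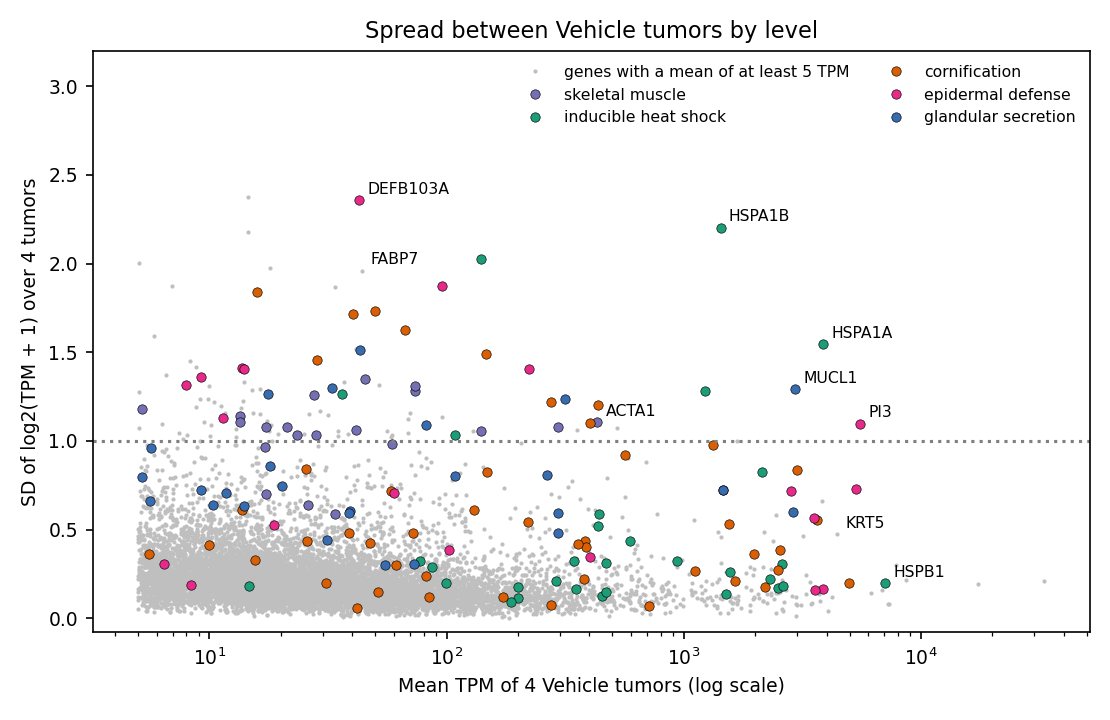
SD of log2(TPM + 1) over the 4 Vehicle tumors against mean TPM (log scale) for genes with a mean of at least 5 TPM, colored by gene list, with the dotted line at an SD of 1. Median SDs were 0.287 for heat shock, 0.435 for cornification, 0.725 for defense, 0.724 for secretion and 1.08 for muscle genes, against 0.19 over all. Only 6 of 31 heat shock and 9 of 47 cornification genes reached an SD of 1.

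A few abundant heat shock genes differed widely between the tumors. HSPA1A, the inducible HSP70 chaperone (chromosome 6, 31815464 to 31817946, plus strand), was at 7368, 5597, 1719 and 729 TPM in Vehicle 1 to 4, a 10.1-fold range. HSPA1B, its near-identical neighbour, had 3338, 1985, 237 and 152 TPM, and since reads can be split between both, their sum is the firmer value, at 10706, 7583, 1956 and 882 TPM. HSPA6, an HSP70 made almost only under stress, had 327, 188, 24.7 and 19.1 TPM. The co-chaperones DNAJB1 and DNAJB4 followed the same order, at 2291, 1730, 466 and 403 TPM and at 74.0, 45.4, 15.3 and 10.5 TPM. Vehicle 1 was thus highest, Vehicle 2 next and Vehicle 4 lowest for each of these. The constitutive HSPA8 had the same order over a narrower 3.48-fold range, from 3507 to 1008 TPM. HSF1, the factor that drives the response, was even at 187 ± 11.9 TPM, and HSP90AB1 at 2498 ± 287 TPM. Of the 31 heat shock genes, 24 were highest in Vehicle 1 and 24 lowest in Vehicle 4, against 29.7% and 28.7% of all 10763 genes. After median-of-ratios scaling these counts were 18 and 21, against 24.8% and 27.5%. The list was drawn up after the values were seen, so these counts are a description.

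Promoters of these genes are shown because the genes varied together and heat shock factor binds inverted repeats of GAA. Each stretch covers the 200 bases before a RefSeq start (GRCh38.p14), 5′ to 3′ on the gene's strand, with capitals for matches to GAANNTTC or TTCNNGAA, which read the same on both strands. The regions are chr6:31815343-31815542 (plus strand), chr6:31827538-31827737 (plus strand), chr1:161524340-161524539 (plus strand), chr19:14518398-14518597 (minus strand) and chr11:123062137-123062336 (minus strand).
HSPA1A: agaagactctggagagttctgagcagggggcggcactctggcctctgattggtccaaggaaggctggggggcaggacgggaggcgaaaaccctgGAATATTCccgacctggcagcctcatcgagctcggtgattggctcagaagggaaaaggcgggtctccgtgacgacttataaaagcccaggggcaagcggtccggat
HSPA1B: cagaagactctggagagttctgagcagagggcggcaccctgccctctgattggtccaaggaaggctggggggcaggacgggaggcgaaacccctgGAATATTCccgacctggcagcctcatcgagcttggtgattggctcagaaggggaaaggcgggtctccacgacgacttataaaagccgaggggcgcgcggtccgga
HSPA6: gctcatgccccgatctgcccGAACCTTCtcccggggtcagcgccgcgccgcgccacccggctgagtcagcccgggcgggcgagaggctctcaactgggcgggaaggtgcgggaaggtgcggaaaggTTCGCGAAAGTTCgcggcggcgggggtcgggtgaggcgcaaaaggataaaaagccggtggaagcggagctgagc
DNAJB1: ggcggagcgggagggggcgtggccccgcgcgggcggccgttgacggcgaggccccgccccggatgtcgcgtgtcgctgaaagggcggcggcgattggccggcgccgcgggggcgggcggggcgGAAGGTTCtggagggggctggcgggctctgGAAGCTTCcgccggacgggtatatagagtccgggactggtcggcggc
HSPA8: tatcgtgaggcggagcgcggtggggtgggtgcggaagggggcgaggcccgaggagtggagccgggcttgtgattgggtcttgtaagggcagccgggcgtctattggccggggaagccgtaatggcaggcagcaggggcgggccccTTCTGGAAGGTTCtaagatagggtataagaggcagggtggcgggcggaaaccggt
Within the whole 300-base windows, 17 of the 26 heat shock genes with a listed promoter held such a match, or 65.4%, against 14.5% of all 14329 genes. This list was drawn up after the values were seen, so the share is a description. The variable HSPA1A, HSPA1B, HSPA6, DNAJB1 and DNAJB4 held a match, but so did the even HSP90AB1 and STIP1. DEDD2, with an SD of 1.03, held none. Whether the match goes with the spread was not tested. The longer 3-unit element, in which the match goes on after 2 further bases of any kind with GAA or TTC in alternation and which contains the shorter one, was in 9 of the 26, or 34.6%, against 0.544%. HSPA6 and HSPA8 held the longer form, and HSPA1A and HSPA1B did not. A match is a string of letters and no proof of binding.

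Cornification genes set Vehicle 2 and Vehicle 4 apart from Vehicle 1 and Vehicle 3. The 57 genes summed to 26318, 37659, 25632 and 39730 TPM, and 55 of them reached 1 TPM, against 73.3% of all genes. SPRR1B, a small proline-rich envelope protein, had 1477, 3595, 1793 and 5079 TPM, and SPRR1A 535, 1989, 758 and 2019 TPM. SPRR2G was at 11.8, 33.5, 31.7 and 190.3 TPM. CDSN, the adhesive corneodesmosin, had 31.8, 168, 58.7 and 326 TPM, and LCE3D, a late envelope protein, 1.08, 11.04, 6.81 and 44.8 TPM, so Vehicle 4 was highest in all 5. Other members were more even, among them the calcium sensor CALML5 at 716 ± 35.4 TPM and the envelope scaffold EVPL at 41.9 ± 1.79 TPM. IVL, the envelope protein involucrin, had 31.1, 63.7, 40.7 and 98.5 TPM and was again highest in Vehicle 4. The terminal genes FLG2 and HRNR stayed at 0.712 and 0.122 TPM. Of the 47 genes with a mean of at least 5 TPM, 28 were highest in Vehicle 4 and 11 in Vehicle 2, against 26.8% and 7.51% of all 10763 genes. After scaling these counts were 28 and 15, against 33.1% and 22.6%. The list was drawn up after the values were seen, so these counts are a description.

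Promoters of SPRR1A, SPRR1B and SPRR2A are shown because these genes varied together and the SPRR family is known for control through AP-1 sites. They cover the 200 bases before the RefSeq start (GRCh38.p14), with capitals for TGANTCA, the AP-1 motif, which reads the same on both strands. The regions are chr1:152983881-152984080 (plus strand), chr1:153031003-153031202 (plus strand) and chr1:153057513-153057712 (minus strand).
SPRR1A: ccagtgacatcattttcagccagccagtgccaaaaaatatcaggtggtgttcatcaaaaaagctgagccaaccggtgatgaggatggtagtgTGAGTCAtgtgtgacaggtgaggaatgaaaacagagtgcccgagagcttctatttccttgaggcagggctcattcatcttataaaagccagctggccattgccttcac
SPRR1B: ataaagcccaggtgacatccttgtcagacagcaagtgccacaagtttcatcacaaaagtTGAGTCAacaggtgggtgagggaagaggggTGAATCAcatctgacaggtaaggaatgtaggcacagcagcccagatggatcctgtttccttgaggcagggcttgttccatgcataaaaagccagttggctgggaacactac
SPRR2A: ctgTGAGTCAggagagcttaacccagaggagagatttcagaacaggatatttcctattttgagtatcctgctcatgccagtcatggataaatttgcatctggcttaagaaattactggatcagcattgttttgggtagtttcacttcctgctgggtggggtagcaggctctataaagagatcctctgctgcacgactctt
In the 300-base windows, TGANTCA was found in 17 of the 45 cornification genes with a listed promoter, or 37.8%, against 7.98% of all genes. The list was drawn up after the values were seen, so this share is a description. SPRR2F, SPRR2G and SPRR3 also held a match, while SPRR2B and SPRR4 held none. The variable CDSN and LCE3D held none, and the even KRTDAP and DMKN held one. Whether the match goes with the spread was not tested. TATAAA, searched on the gene's strand with its first base within 45 to 15 bases before the start, was in 15 of these 45, or 33.3%, against 3.85%. Their promoters held a median of 3 CG pairs, against 23 over all genes. FOSL1, an AP-1 subunit, had 12.8, 62.6, 25.5 and 107 TPM, and HBEGF, an EGF receptor ligand, 9.58, 46.6, 15.2 and 76.6 TPM, both higher in Vehicle 2 and Vehicle 4. Other AP-1 subunits differed less, with JUN at 86.3 ± 11.6 TPM and FOSL2 at 68.6 ± 4.88 TPM.

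The epidermal defense genes had the same high and low tumors. Their 27 genes summed to 18658, 36309, 18315 and 35195 TPM. Each of the 21 above a mean of 5 TPM was highest in Vehicle 4 or Vehicle 2, 12 and 9 of them, as TPM and after scaling alike, where all genes had the shares given for cornification. This list was drawn up after the values were seen, so these counts describe it and give no support for a shared program. The beta-defensin genes DEFB103A and DEFB4A, antimicrobial peptides of inflamed skin, had 3.11, 74.6, 4.90 and 89.0 TPM and 23.1, 150, 13.6 and 195 TPM, and both have a near-identical copy. S100A9 had 1684, 4453, 1707 and 3494 TPM. The interleukin-36 cytokine IL36G and its antagonist IL36RN were at 2.22, 12.3, 2.48 and 19.7 TPM and at 3.72, 15.8, 3.74 and 32.5 TPM. In all 5 of these genes Vehicle 2 and Vehicle 4 were both above Vehicle 1 and Vehicle 3. This split was seen in the values and is no grouping of the study.

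Glandular secretion genes ran the other way for Vehicle 4. MUCL1, a small breast mucin (chromosome 12, 54830519 to 54858393, plus strand), was at 4767, 3044, 3352 and 634 TPM. SCGB1A1, the secretoglobin best known from airway club cells (chromosome 11, 62405103 to 62423195, plus strand), ranked 38 of 18164 with 4829, 1798, 2508 and 2426 TPM. BPIFB1, an airway defense protein, had 356, 159, 654 and 93.8 TPM, and the secretory chaperone AGR2 361, 222, 367 and 111 TPM. FGG, a fibrinogen chain usually made by liver, was at 70.4, 44.2, 52.1 and 6.05 TPM. Of 26 secretion genes with a mean of at least 5 TPM, 17 were lowest in Vehicle 4, against 28.7% of all 10763 genes, among them MUCL1, BPIFB1, AGR2 and FGG. This list too was drawn up after the values were seen, so the count is a description. FABP7, a brain fatty acid binding protein seen in basal-like cancers, was at 73.0, 25.3, 74.7 and 3.2 TPM. LALBA, the lactose synthase subunit of milk, was at 0 in all 4 tumors.

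**Figure D5:**
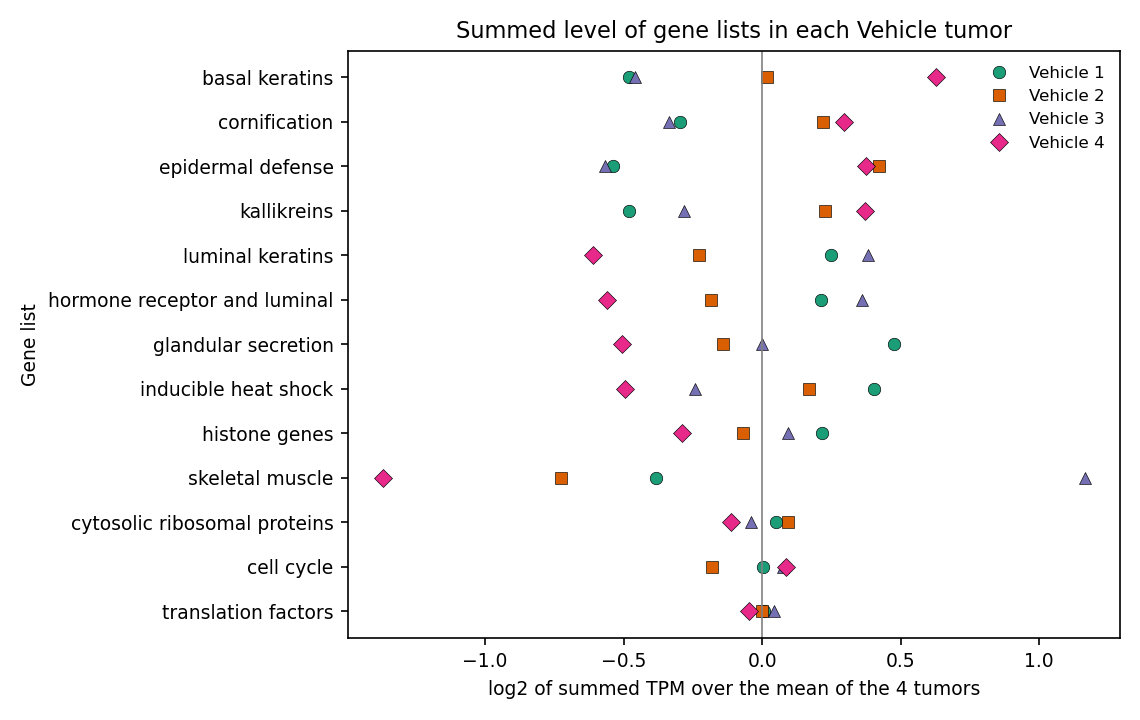
log2 of the summed TPM of 13 gene lists in each Vehicle tumor over the mean of the 4 tumors. Vehicle 4 lies to the right for basal keratins, cornification and defense genes and to the left for luminal, secretory and heat shock genes, and Vehicle 3 stands alone for skeletal muscle.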

How the data were processed

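RNA-seq was made from whole xenograft tumors after ribosomal RNA depletion and poly(A) selection, per the labels' protocols, and only the 4 Vehicle columns of the deposited table were used. The values are TPM, made by the authors. HISAT2 2.1.0, Bowtie2 2.2.5, RSEM 1.2.8 and GRCh38.p13 are named per the submitters' processing notes, without their roles. No source used here gives the treatment of mouse reads. TPM is relative to each library's total and holds no depth, so a gene can move because others do.

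Means and SDs over the 4 tumors were computed in Python 3.11.15 with pandas 2.3.3. A gene was detected at a mean of 1 TPM. Spread was the SD of log2(TPM + 1), with a pseudocount of 1, for genes with a mean of at least 5 TPM, and the script was tested on simulated data. Since 1 group is described, no comparison was tested, and single outlying tumors were found with Dixon's 95% critical value. Promoters of 250 bases before to 50 after the start came from RefSeq (GRCh38.p14) and matched 14329 of 18164 genes, and positions came from GENCODE 29.

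Genes were named by rule: the 30 most abundant, the 20 most and 10 least variable, up to 5 of the highest or defining members of each list, and always BRCA1 and RB1. A few genes that the rule covers are not reported here. Others were chosen after their values were seen. The members and lists were chosen with earlier results of these data known. The alternatives were leaving out each tumor, removing the MTRNR2L genes, median-of-ratios scaling, and other thresholds, pseudocounts and filters.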

Additional observations from a re-analysis of the deposited data

Results flagged for a closer look

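In 13 of 223 gene lists and named genes, 1 tumor was separated from the other 3 by a gap past Dixon's 95% critical value. Chance flags about 1 in 20 groups, and 523 of 10763 genes with a mean of at least 5 TPM (4.86%) passed the same limit. The gap is judged as a share of the range, so a flagged tumor can differ little in TPM, as for the even gene EVPL. No minimum TPM was set for the 223, and PGR, CDH5, KRT20, ZEB1 and PDGFRB were flagged at 0.65 TPM or less.

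Vehicle 4 was the outlying tumor for KRT14 at 6953 TPM, SPRR2G at 190.3 TPM, the envelope scaffold EVPL at 44.5 TPM, RPL8 at 5276 TPM, the lowest of its group, and PGR at 0.02 TPM. Vehicle 3 stood apart for DES at 250.98 TPM, for PDGFRB at 0.65 TPM and for the summed ERBB2 segment at 573 TPM. Vehicle 2 stood apart for EIF3CL at 50.97 TPM and KRT20 at 0.240 TPM, both high, and for ZEB1 at 0.370 TPM and the summed mitochondrial ribosomal protein genes at 6397 TPM, both low. Vehicle 1 stood apart for CDH5 at 0.0400 TPM, which was low. After median-of-ratios scaling, the 77 mitochondrial ribosomal protein genes with a mean of at least 5 TPM summed to 6499, 6929, 6311 and 6903 in Vehicle 1 to 4. Vehicle 2 was then highest, so its low sum depends on the scaling. The ERBB2 segment then summed to 468, 510, 536 and 495, with Vehicle 3 still highest but by a smaller gap. EIF3CL has a near-identical copy with which reads can be split.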

How the results depend on the processing

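Of 57 alternatives over 8 results, 52 stayed within the spread between tumors or, for counts, within 1.5 times the reported count. Part of this was fixed in advance. Leaving out 1 tumor of 4 cannot move the mean of a summed list past that spread. The skeletal muscle sum thus stayed within it, although it fell from 1409 to 826 TPM without Vehicle 3. Rescaling cannot change the count at 0, nor median-of-ratios scaling the share of the top 100. The 52 is therefore no measure of robustness. The 650 genes at 0 in every tumor became 1430 when the limit was under 0.1 TPM in every tumor. The share of TPM in the 100 most abundant genes was 30.8% after the MTRNR2L genes were removed, against 33.9%. The 107 genes with an SD of at least 1 became 49 with a pseudocount of 5 and 56 at a mean of at least 20 TPM, and leaving out 1 tumor at a time gave 52 (without Vehicle 4) to 148 (without Vehicle 2). No paired analysis was possible because the results describe 1 group and come from no test. The depth of the libraries is unknown, so a value of 0 sets no upper limit.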

Other observations

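Histone genes had the same highest and lowest tumor as the heat shock genes. The 73 histone genes in the table summed to 4804, 3948, 4411 and 3386 TPM in Vehicle 1 to 4, and of 38 with a mean of at least 5 TPM 26 were highest in Vehicle 1 and 27 lowest in Vehicle 4, against 29.7% and 28.7% of all 10763 genes. Collagens ran the other way, with 15 of 18 such genes highest in Vehicle 4, against 26.8% of all, and sums of 473, 518, 622 and 842 TPM. After median-of-ratios scaling these counts were 24, 28 and 16, against 24.8%, 27.5% and 33.1%.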
